A study of Mus musculus with 122 samples.

Results

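Hi-C domains are stretches of chromosome whose loci touch each other more often than they touch loci beyond the ends, and the position where a domain stops is its boundary. CTCF is a zinc-finger protein that binds DNA at many boundaries and blocks the loop extrusion carried out by cohesin. CTCFL, also called BORIS, is its germline paralogue, with a similar zinc-finger region and different ends. The values here come from the deposited domain lists of the mouse embryonic stem cell line that can make CTCFL. They ask which domains of untreated cells became joined or divided after CTCF was degraded, with and without CTCFL. The samples taken are all Hi-C samples of that line by their labels, 8 of the 122 in the series, and no measured value chose them.

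All cells are E14Tg2a, a male (XY) 129/Ola line kept without feeders on gelatin in serum with LIF, CHIR99021 and PD0325901. Both alleles of Ctcf carry an auxin-inducible degron (AID), and the cells express Tir1, which lets the auxin analogue IAA trigger breakdown of the CTCF protein. A doxycycline-driven Flag-CTCFL-mRuby2 transgene sits at the Tigre locus on both alleles of 1 clone. U cells received nothing, I cells IAA at 500 µM, D cells Dox at 1 µg/ml, and ID cells both agents, so I lacks CTCF, D has both proteins, and ID has CTCFL in place of CTCF. Another line of the same series carries a CTCF transgene in the same place and is used only for reference. For the treated samples used here the labels give 24 h, while the treatment protocol gives 4 days for Hi-C and 2 days for RNA and ChIP. These statements disagree, so the time for which domains lacked CTCF is not settled here, and RNA or ChIP may come from another time than Hi-C. A single clone, a transgene level set by Dox and an added Flag and mRuby2 limit what the line can stand for.

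The labels were checked against RNA from the same line. Ctcf RNA lay between 3767 and 5278 normalized counts in all 11 libraries, which fits a protein-level degron and cannot show that CTCF protein was lost. Ctcfl RNA lay between 177 and 225 in U and I, between 7570 and 9398 in D, and between 5455 and 5572 in ID, so the RNA libraries carry the right Dox labels; the Hi-C lists hold no such check. All 8 stem cell markers searched (Pou5f1, Sox2, Nanog, Zfp42, Esrrb, Klf4, Tfcp2l1 and Dppa5a) were present in every library.

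Domains were called by the authors in 40-kb bins with both the HiCratio and the Crane method, and each method gives 1 list per condition. HiCratio domains tile the genome with narrow gaps, whereas Crane domains leave wider gaps. With 1 list per condition there are no replicates of a list, so the lists were compared as counts with no test. Ranges in brackets are Wilson 95% intervals. They cover counting error over domains, boundaries or genes, taken as independent, and not the spread between cultures. Neighbours can share a fate or an RNA change, so these ranges may be too narrow. How the replicates of each condition entered its list is not stated, and although the study reports Hi-C read totals, the lists carry no depth, whose part in these counts was not tested. In each condition the HiCratio list is attached to 1 sample record and the Crane list to the other. The part of replicates in the differences between methods was not tested.

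Untreated cells had 2952 HiCratio domains with a median length of 600 kb, and lists of CTCF-depleted cells were shorter. I held 2556 and ID 2524 domains, each with a median of 640 kb, while D stayed near U with 2971 domains and a median of 600 kb. Long domains became more numerous, as those of at least 2 Mb numbered 212 in U, 206 in D, 279 in I and 278 in ID. The Crane lists moved the same way by less, from 3079 domains in U to 2915 in I, 2965 in ID and 3063 in D, with medians of 480, 520, 520 and 480 kb. Loss of CTCF protein thus went with fewer and longer domains in both methods, and adding CTCFL alone left number and length nearly as they were. CTCFL made in depleted cells did not bring the HiCratio count back towards U.

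A boundary was taken as the middle of the gap between neighbouring domains, and a U boundary counts as kept when the other list has a boundary within 40 kb, that is, within 1 bin. Of 2932 HiCratio boundaries in U, 1564 were kept in I (53.3%, 51.5 to 55.1) and 1618 in ID (55.2%, 53.4 to 57). D kept 2576 (87.9%, 86.6 to 89.0), about as many as the untreated CTCF line, which held 86.6% (85.3 to 87.7) of the same boundaries. The D list therefore stood no further from U than a second untreated line did. For scale, 11.8% of the 64334 bins of the genome, without the first 3 Mb of each chromosome, lie within 40 kb of an I boundary. Crane boundaries were kept less often in every condition: 44.3% in I, 46.4% in ID and 78.0% in D. Both methods put D apart from I and ID, and both put ID only slightly above I.

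Each U domain was then placed in 1 of 5 classes. It is kept when both ends lie within 40 kb of the ends of a later domain, merged when at least 90% of it lies in a later domain that also holds at least 90% of a neighbouring U domain, and split when at least 2 later domains lie 90% or more inside it. Uncovered domains have less than 50% of their length in the later list, and all others are shifted. In I, 761 of the U domains were merged (25.8%, 24.2 to 27.4), 114 split (3.86%, 3.22 to 4.62), 853 kept (28.9%, 27.3 to 30.6) and 1224 shifted (41.5%). In ID, 852 were merged (28.9%, 27.3 to 30.5), 117 split (3.96%), 896 kept (30.4%) and 1087 shifted (36.8%). A U domain was thus several times as often merged as split once CTCF was degraded, with or without CTCFL. Each merger counts at least 2 U domains and each split counts 1. Counted by event, I had 321 merging domains beside 114 split ones, ID 356 beside 117, and D 130 beside 140. D differed in merging and not in splitting, with 277 merged (9.38%), 140 split (4.74%) and 2168 kept (73.4%, 71.8 to 75). Splits were as common in D as in I and ID, so the split share does not set the depleted lists apart.

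**Figure D1:**
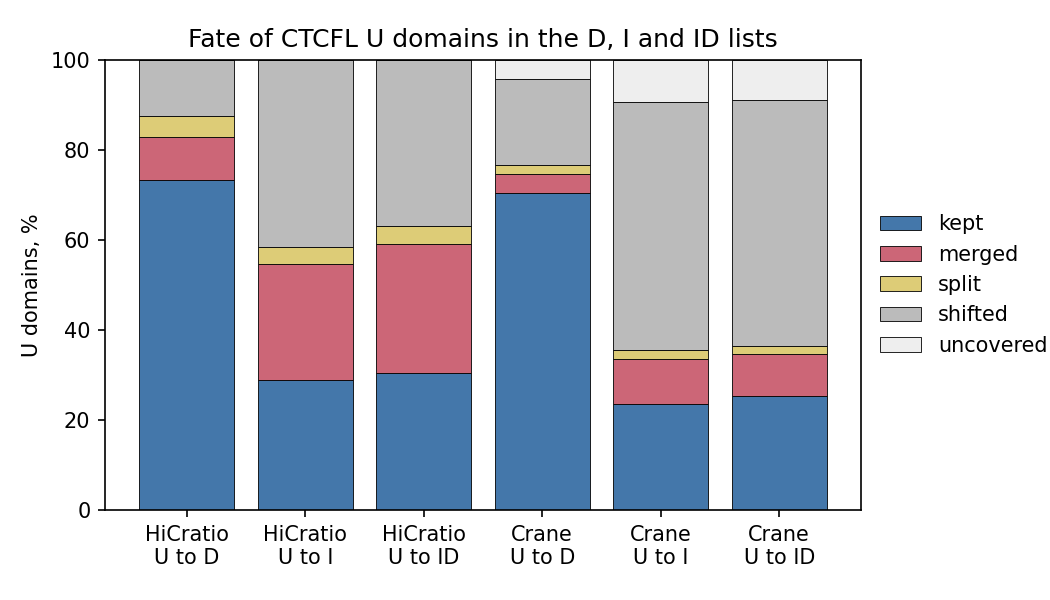
Share of U domains (percent) kept, merged, split, shifted or uncovered in D, I and ID, for HiCratio and Crane. Merged domains widen and kept domains shrink in I and ID, while D stays mostly kept.

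Most mergers joined few domains. In I, 321 of 2556 domains (12.6%) held at least 2 whole U domains: 244 held 2, 52 held 3 and 25 held 4 or more, with 7 as the most. In ID, 356 of 2524 (14.1%) did so, 261 with 2, 69 with 3 and 26 with 4 or more, and the largest held 9. D had 130 such domains, and 116 of them held only 2. The merging domains of I had a median length of 1800 kb and those of ID 1760 kb, against 1280 kb in D. Runs of 4 or more joined neighbours were thus few in every list. HiCratio had 2 in D and more in the depleted lists, with 25 in I and 26 in ID. Crane had 0 in I and D and 1 in ID.

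Crane gave fewer mergers and more domains left without cover. It placed 308 U domains as merged in I, 281 in ID (9.13%) and 131 in D (4.25%); splits numbered 59, 57 and 63. Another 290 domains were uncovered in I (9.42%), a class that the near-gapless HiCratio lists do not have. The methods often drew different boundaries already in U, where 46% of HiCratio boundaries had a Crane boundary within 40 kb. Among those 1350 shared boundaries, Crane kept 71.5% of the ones HiCratio kept in I and 32.6% of the ones HiCratio lost. A boundary's fate in I was thus mostly shared between methods where both had drawn it.

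I and ID differed in which boundaries they held more than in how many. Of the 1368 U boundaries lost in I, 275 were present in ID (20.1%, 18.1 to 22.3), and of the 1314 lost in ID, 221 were present in I (16.8%, 14.9 to 18.9). The traffic ran in both directions at similar rates. Another 1343 boundaries (45.8%) were kept in both depleted lists and 1093 (37.3%) were lost from both; I and ID are compared with the same U list here, so these groups are not independent. I and ID matched each other better than either matched U, with 76.5% (74.8 to 78.1) of I boundaries found in ID. The I list of the CTCF line, where no CTCFL is made either, held 78.9% of them. Of the 1107 boundaries lost in I and present in the untreated CTCF line, ID held 19.7% (17.5 to 22.1) and the I list of the CTCF line 19.2% (17.0 to 21.7). At the same position the shares of I boundaries were 52.8% in ID and 59.1% in the other I list. Depleted lists of different lines thus differ too, by somewhat less than I and ID do, and the part of CTCFL in the differences between I and ID was not tested. Crane found 66.4% (64.6 to 68.1) of I boundaries in ID and 70.5% (68.8 to 72.2) in the I list of the CTCF line. For the 1169 of its boundaries lost in I and present in the untreated CTCF line it gave 24.7% (22.3 to 27.3) in ID and 20.9% (18.6 to 23.3) in the other I list. In the line with a CTCF transgene, U to ID kept 76.6% of HiCratio boundaries and U to I kept 55.0%. There CTCF made from the transgene went with many more kept boundaries, which the ID list of the CTCFL line did not show; this difference between lines was not tested.

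The boundaries missing from both depleted lists can be followed at the same positions in the other line. The untreated CTCF line had 889 of the 1093, and of these its I list held 16.4% and its ID list 75.1%. Of the 218 boundaries that were lost in I, kept in ID and present in the untreated CTCF line, its I list held 30.7% and its ID list 85.3%. Boundaries that ID held and I lacked were thus more often present in the other line's depleted list, where no CTCFL is made. New boundaries, with no U boundary within 40 kb, made up 972 of 2536 in I (38.3%) and 886 of 2504 in ID (35.4%). The I list of the CTCF line held 64.2% of the new I boundaries, so many of them recur in another clone without CTCF.

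Median length separated split from other domains and hardly separated merged from kept. Median lengths in I were 560 kb for merged, 520 kb for kept, 620 kb for shifted and 1500 kb for split domains. In ID they were 600 kb for merged, 520 kb for kept and 1480 kb for split. Domains under 200 kb stood out: 69.1% of these 55 were kept in I and 9.09% merged. From 200 kb upwards the merged share stayed within narrow limits, at 29.2% from 200 to under 400 kb, 24.7% to under 800 kb, 26.0% to under 1600 kb and 30.3% above. The split share rose along the same bins, from 0.434% at 400 to under 800 kb to 8.14% at 800 to under 1600 kb and 16.2% in the longest 333 domains. A long domain has more room for later domains inside it, so the split class favours length by its own rule. Crane turned the order for mergers around, with medians of 360 kb for merged and 480 kb for kept domains, so no direction of merging by length holds across methods.

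Gene density separated merged from kept domains. It was counted as starts of protein-coding genes per Mb of domain. HiCratio domains kept in I had a median of 8.33 starts per Mb, merged domains 4.41, shifted domains 8.22 and split domains 2.31. ID gave 7.50 for kept, 4.59 for merged and 3.09 for split domains. Merging and splitting in the HiCratio lists thus both fell in gene-poor chromatin, and they did so with and without CTCFL. D had the same order with CTCF present, at 7.14 for kept, 4.63 for merged and 3.29 for split domains, so the order is not limited to depleted lists. The Crane medians in I were lower in both classes, at 4.17 for kept and 2.27 for merged domains.

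In HiCratio the trend ran along the whole range once domains held any gene. Merged shares in I were 34.5% (31.6 to 37.4) for the 1036 domains with more than 0 and up to 5 starts per Mb, 26.6% for the next 583, 18.4% for 602 with more than 10 and up to 20, and 16.1% (13.1 to 19.7) for the 483 above 20. The 248 domains with no coding start broke it, with 24.2% merged and 43.5% kept. ID repeated the pattern with 22.6% merged in the empty bin, 38% in the next, and then 22.8% and 18.6% in the densest 2 bins. HiCratio lists also reach over the unassembled start of each chromosome, which holds no gene. Short domains, too, have less room for a gene start. The part of such domains in the empty bin was not tested. Within domains of 400 to under 800 kb the merged shares in I were 31.3%, 34.2%, 27.1%, 17.6% and 16.6%, so the order above 0 holds among domains of that length. Over domains of all lengths Crane had no such trend: its merged shares in I were 15.6% in the empty bin and then 8.79%, 6.41%, 7.24% and 8.58%. In ID they were 14.9%, 7.11%, 6.62%, 6.14% and 8.31%. Crane domains of 400 to under 800 kb did fall, with 12.4%, 9.24%, 5.74%, 4.57% and 5.15% in I and 7.58%, 8.01%, 5.26%, 4.57% and 2.21% in ID. Within this length class, the only one run, the merged share thus fell with gene density above 0 in both callers, apart from the last Crane bin in I. The Crane steps rest on few domains, with 39, 11, 10 and 3 merged in ID. Base composition moved along with gene density, with a GC share of 42.8% in kept, 40.8% in merged and 39.7% in split domains, and its part in the result was not tested.

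**Figure D2:**
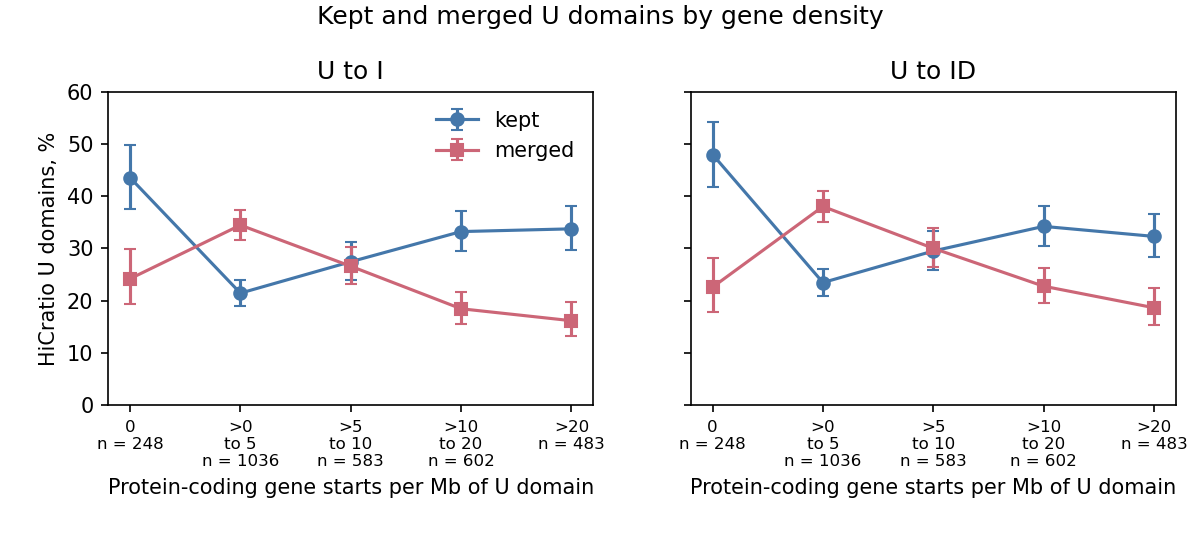
Share of HiCratio U domains (percent) kept (circles) or merged (squares) in I and ID, by protein-coding gene starts per Mb, with Wilson 95% bars. Merging falls as gene density rises above 0. Domains with no coding start, which can include unassembled sequence, are kept most.

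Sites of CTCFL follow gene density, and so do the domain classes sorted by them. A site is a region with a peak in both ChIP replicates; CTCFL had 22294 sites in D, and the FLAG-CTCF of the other line had 30317 in ID, which serve as a map of CTCF. Kept domains in I held 9.55 CTCFL sites per Mb, merged 5.40, shifted 9.72 and split 3.77. CTCF sites fell in the same order, at 12.5 per Mb in kept and 8.22 in merged domains. Merged domains were therefore poor in sites of both proteins, not of CTCFL alone.

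By CTCFL sites, merged shares in I were 26.5% in the 422 domains with none, 36.7% in the 823 with more than 0 and up to 5 per Mb, and 15.1% in the 568 with more than 20. In ID, where CTCFL is present, the same bins had 22.0%, 37.1% and 21.8% merged. I cells received no Dox, yet their domains sort by CTCFL sites too, and the density of genes and of sites cannot be told apart in that order. In the densest bin ID had a larger merged share than I in HiCratio, whereas Crane had 8.19% (5.89 to 11.3) in I and 6.70% (4.65 to 9.57) in ID. These Crane ranges overlap, and with more than 10 and up to 20 sites per Mb Crane rose from 6.72% in I to 7.74% in ID. Crane thus gives no clear direction for domains rich in CTCFL sites once CTCFL was made.

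Chromosomes differed, and X stood at 1 end in the HiCratio lists. X had 151 domains in U, 100 in I and 107 in ID, a change of -33.8% and -29.1%. Of its 150 boundaries, I kept 58 (38.7%, 31.2 to 46.7), ID 46% (38.2 to 54) and D 74.7% (67.2 to 81.0). Merged domains made up 49.0% of X in I, 44.4% in ID and 23.8% in D. X was therefore the most merged chromosome in I and carried many mergers in D too, where CTCF is present. X domains are long already in U, with a mean of 1093 kb, and X has 1.77 CTCFL sites per Mb, where other chromosomes have from 5.84 on chromosome 3 to 14.9 on chromosome 11. Coding density on X was low at 5.54 starts per Mb, yet chromosome 12 was lower at 5.35. The cells are XY, so X is present in a single copy, unlike the autosomes. The part of copy number in its domain calls and site counts was not tested.

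Among autosomes the range was narrower and the order changed with condition and method. In I, chromosome 12 kept 45.9% (37.3 to 54.7) of its boundaries, and chromosomes 17 and 18 kept 61.0% (51.4 to 69.7) and 59.8% (50.1 to 68.8). In ID, chromosome 14 was lowest with 46.7% (38.1 to 55.5), and chromosomes 18 and 16 were highest with 61.8% (52.1 to 70.6) and 60.4% (51.1 to 69.0). The ranges of the lowest and highest autosomes overlap at their edges. Mergers were fewest on chromosome 4 in I (14.6%) and on chromosome 18 in ID (13.6%), and chromosome 13 reached 44.6% in ID. Crane ordered the chromosomes otherwise, with chromosome 2 lowest in I at 33.8% and chromosomes 12 and 14 highest at 51.4% each. Crane counted 189 domains on X in U, 182 in I and 196 in ID, so the large fall in domain number on X belongs to HiCratio alone. The share of X boundaries that Crane kept was 38.3% (31.6 to 45.4) in I and 46.8% (39.8 to 53.9) in ID, near the HiCratio shares.

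**Figure D3:**
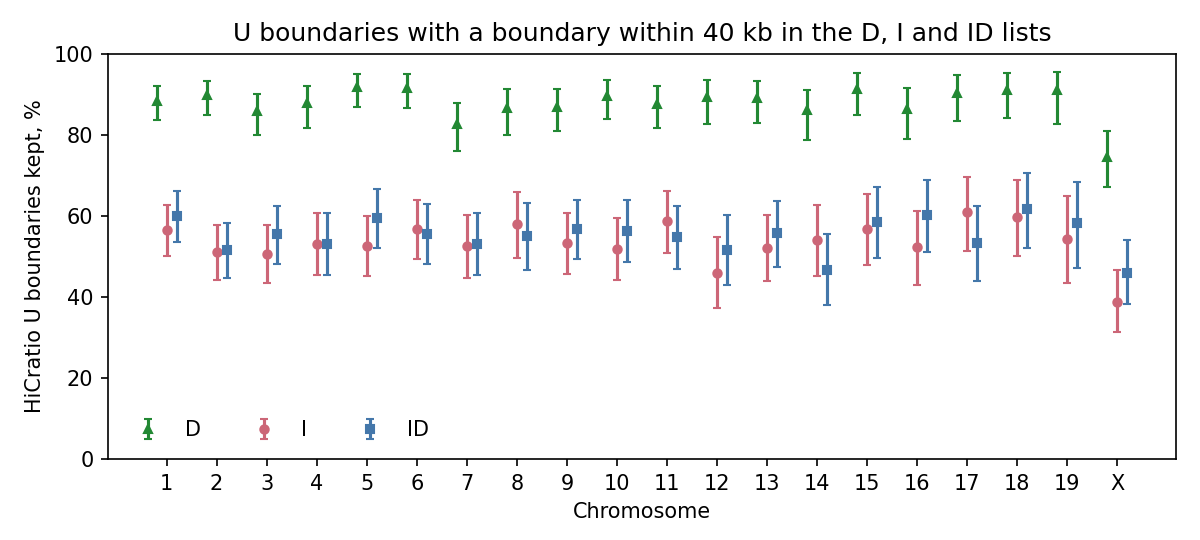
Share of HiCratio U boundaries (percent) kept on each chromosome in D (triangles), I (circles) and ID (squares), with Wilson 95% bars. D lies above I and ID on every chromosome. X is lowest in all 3, though in ID chromosome 14 is close, with 46.7% beside 46% on X.

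Boundaries carried more binding sites than other positions. Within 40 kb of the 2932 U boundaries a CTCFL site lay at 64.2% and a CTCF site at 79.2%, against 36.2% and 45.4% of all bins. The middles of domains of at least 200 kb had 41.4% and 48.0%. Kept and lost HiCratio boundaries did not differ in CTCFL sites in I: 64.4% (62.0 to 66.7) of those kept in I and 64.0% (61.5 to 66.5) of those lost had one. For ID the shares were 62.6% of kept and 66.2% of lost boundaries. Crane went the other way, keeping 47.5% (45 to 50.0) of boundaries with a CTCFL site in I and 41% (38.6 to 43.5) of those without, and 48.5% and 44.2% in ID. The callers thus disagree on whether CTCFL sites mark the boundaries that remained, and the Crane difference was present in I, without Dox, as well.

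CTCF sites and gene starts did sort the HiCratio boundaries. A CTCF site lay near 74.8% of boundaries kept in I and 84.1% of those lost, and a coding start near 65.8% of kept and 52.6% of lost ones. Boundaries with CTCF and no CTCFL site were kept least in I (41.5%, 37.3 to 45.8, of 516), those with both sites more often (53% of 1805), and those with neither most often besides a small group (64.4%, 60.2 to 68.3, of 533). That small group, CTCFL without CTCF, had 78 boundaries and kept 65.4%. HiCratio boundaries bound by CTCF were hence the ones more often lost once CTCF was gone. Crane did not show this, as it kept 45.6% of boundaries with a CTCF site in I and 42.2% of those without. A coding start went with keeping in both, since Crane kept 47.9% with and 40.8% without one.

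In the HiCratio list of ID the CTCF-bound groups were again kept least. It kept 48.6% of boundaries with CTCF only, 53.4% with both, 62.8% with CTCFL only and 66.4% with neither. The gain over I was therefore largest where CTCF sites stood without a CTCFL site, and near 0 where CTCFL bound. In D the order was the opposite, from 90.3% with CTCF only to 79.5% with neither. In Crane, boundaries with neither mark did not stand out in I (41.8% of 1011, against 39.4% with CTCF only and 47.8% with both), so this order rests on HiCratio.

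HiCratio boundaries that ID held and I lacked were not rich in CTCFL sites. Of the 275 lost in I and present in ID, 58.5% (52.6 to 64.2) had a CTCFL site within 40 kb, against 70.1% (63.8 to 75.8) of the 221 kept in I and lost in ID; Crane had 46.6% and 51.2%. Those kept in both had 63.4% and those lost from both 65.4%. Where both methods drew the boundary and gave the same fate, 30 were lost in I and present in ID, and 21 of them had a CTCFL site. Cohesin could not be added to this account, since RAD21 peaks found in both replicates numbered 216 in D and 125 in ID, from replicate lists of very unequal length.

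Some of these 30 boundaries can be named. At the boundary chr19:41060001 between U domains of 280 and 680 kb, a CTCFL site with a deposited -log10 q-value of 85.9 lies in an intron of Opalin, a gene for a myelin membrane glycoprotein, with Dntt, the template-free DNA polymerase of lymphocytes, close by. The others with strong sites are chr12:80940001 near Srsf5, a splicing factor gene, and Slc10a1, a bile acid transporter gene; chr10:59900001 with its site in an intron of Dnajb12, a chaperone gene; chr10:97300001; and chr17:78620001 with its site in an intron of Vit, an extracellular matrix gene. Their -log10 q-values were 54.9, 48.8, 43.3 and 41.7. Each of the 5 also has a CTCF site, with -log10 q-values of 107, 123, 107, 112 and 92.3 in the order named, so none is marked by CTCFL alone. In the CTCF line, the I list has a boundary at only 1 of these positions, chr19:41060001, and the ID list lacks only chr12:80940001. At 3 of them the CTCF line thus lacked the boundary in I and had it in ID, as the CTCFL line did. Srsf5 and Dnajb12 passed the RNA filter described below and neither was called.

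The core of the CTCF motif was searched on both strands as CCANNAG followed at once by NNGGC, 12 letters in which N is any base. In windows reaching 100 bases to either side of a peak summit it occurred at 44.2% of CTCF sites, 26.4% of CTCFL sites and 8.19% of sites of CTCFL alone, against 1.04% of all windows of that length. Of boundaries kept in I, 55.9% had a CTCF site with a match within 40 kb, and of those lost, 63.9%. Crane had the reverse, 46.3% (43.7 to 49.0) of kept and 41.6% (39.3 to 44) of lost boundaries, so the motif marked neither fate across callers. The matches below lie at the strongest sites of U boundaries that were lost in I and present in ID, kept in both or lost from both. They show that the same core occurs at each fate. Strongest sites without a match also occur at each fate and are not shown. Among the named boundaries lost in I and present in ID, only the site in Dnajb12 had a match. Bases are from GRCm38/mm10 on the strand given, with the motif in capitals; a match is a description and not a measured contact.

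Lost in I and present in ID, chr10:59894974-59894993, plus strand, intron of Dnajb12: tcggCCAGCAGGGGGCagag
Kept in I and ID, chr2:11331674-11331693, plus strand, between genes, nearest coding start Prkcq: atcaCCACTAGAGGGCagca
Kept in I and ID, chr1:181888952-181888971, plus strand, between genes near Lbr: ttagCCAGCAGAGGGCgctg
Kept in I and ID, chr17:27534886-27534905, plus strand, between genes near Hmga1 and Grm4: atgaCCACGAGGTGGCaaca
Kept in I and ID, chr17:31011702-31011721, plus strand, between genes near Umodl1: attgCCACTAGATGGCgcgc
Lost in I and ID, chr13:102678689-102678708, plus strand, between genes near Cd180: gtggCCACTAGGTGGCagct
Lost in I and ID, chr2:180251452-180251471, minus strand, between genes near Rps21, Cables2 and Lama5: gtcgCCACTAGGGGGCatcc

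Strong CTCF binding was found at kept and at lost boundaries alike. Among boundaries on which both methods gave the same fate, the strongest CTCF sites at kept ones had -log10 q-values of 163 at chr2:11300001, 162 at chr1:181860001, by Lbr, the lamin B receptor gene, and 156 at chr17:27540001, by Hmga1, an architectural chromatin protein gene. The strongest at lost ones had 156 at chr13:45020001, by Dtnbp1, the dysbindin gene, 155 at chr5:123940001, by Denr and Hip1r, and 146 at chr13:102660001, by Cd180. With matching widened to 80 kb all 3 count as kept in ID and the first also in I, and the I list of the CTCF line has a boundary at both chromosome 13 positions. The boundary at chr5:123940001 was absent in D too, as were chr2:180260001 by Cables2 and chr7:43900001 by Klk4 and Klk15, so these were missing with CTCF present too. These were chosen as the strongest of each fate. Over all boundaries of each fate with a CTCF site, the median was 78.6 for the 364 kept and 74.6 for the 251 lost.

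Named mergers show what a joined stretch looks like. RNA values given with them are deposited normalized counts, averaged over 3 U, 3 I or 2 ID libraries. They were compared by limma on log2(value+1) over the 16840 genes with a mean of at least 10, and a gene is called with an adjusted p below 0.01 and a log2 fold change beyond 1. Adding 1 understates the change of low genes. Nothing says that replicates are separate cultures, so p-values measure spread between these samples that may be technical, and in bulk samples fewer cells of a type and less RNA per cell cannot be told apart. Overall 9.58% of tested genes were called from U to I, 1613 genes with 622 higher and 991 lower, and 19.6% from U to ID, 3298 genes with 1500 higher and 1798 lower. From U to D 5.90% were called (3.76% higher, 2.14% lower), and from I to ID 7.83% (3.94% and 3.89%).

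The largest merger in ID joined 9 U domains on chromosome 8, chr8:60520001-68800000, with lengths from 440 to 2520 kb. Of the 9 boundaries inside, ID lost 8 and D held 8. Crane shows no merger there: it kept 2 of its 10 boundaries and placed 12 domains in ID against 11 in U, so its boundaries shifted. I divided the same stretch into pieces of 520, 3600 and 4080 kb, so it had merged there as well, to a lesser degree. The stretch has 32 CTCFL sites, mapped in D, and 63 CTCF sites, and the part of CTCFL in the fate of its boundaries was not tested. The stretch holds 35 coding starts and 21 tested genes. From U to ID 19.6% of all genes were called and 10.7% were called lower, and here 8 of the 21 were called, all lower. They are Mfap3l (-2.20), Clcn3, for a chloride-proton exchanger (-1.15), Nek1, for a kinase of cilia and DNA repair (-1.81), Sh3rf1 (-1.69), Klhl2 (-2.16), Apela, for a peptide hormone of early embryos (-1.74), Psd3 (-2.69) and Sh2d4a (-2.25).

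**Figure D4:**
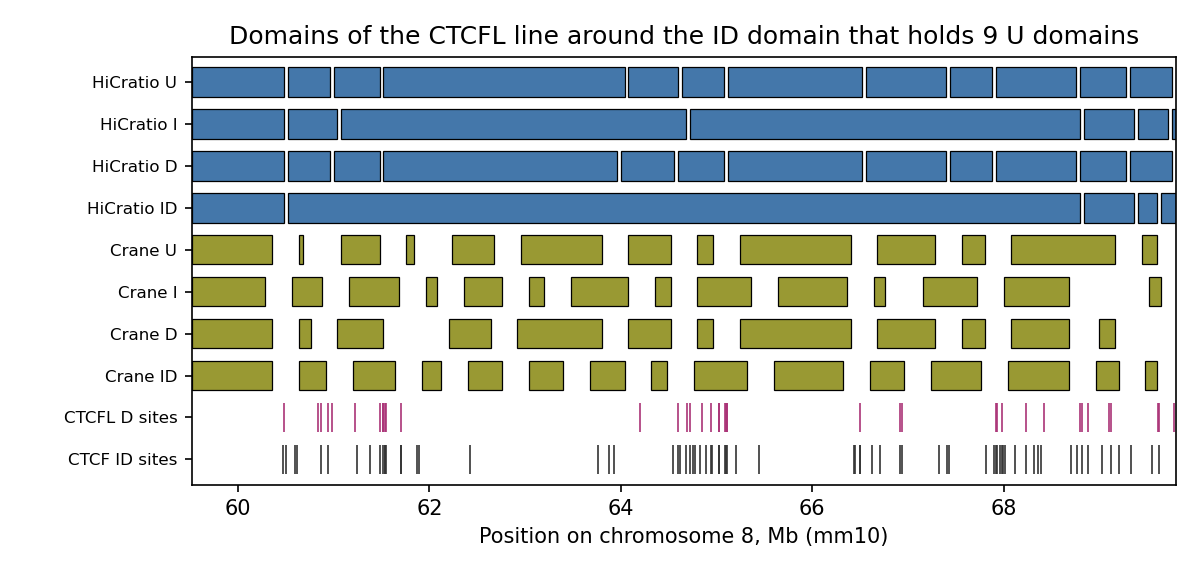
HiCratio and Crane domains of U, I, D and ID along chromosome 8 (position in Mb), with CTCFL D and CTCF ID sites as ticks. A run of U and D domains is 1 domain in the HiCratio list of ID and few long ones in I.

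Chromosome X gave 3 of the 5 largest mergers in I. The domain chrX:81560001-93320000 of 11760 kb joined 7 U domains and holds Dmd, the dystrophin gene, which fell from 1663 to 513 (-1.72), and Nr0b1, for a nuclear receptor of stem cells, which fell from 802 to 328 (-1.28). D held 3 of the 7 U boundaries inside chrX:81560001-93320000 and 4 of the 5 inside chrX:106240001-111320000. The domain chrX:60040001-71600000 joined 6 in I and the same 6 in ID, with none of its 5 inner boundaries left in either. D held 3 of these 5. Crane kept 3 of its 13 boundaries there in I and 1 in ID, yet placed 13 and 14 domains against 14 in U. In the other mergers it kept 8 of 13 at chrX:81560001, 4 of 9 on chromosome 5 in I and 6 of 10 in ID, 3 of 7 at chr14:8360001, 2 of 6 at chr14:103080001, 3 of 6 at chrX:106240001 and 8 of 15 at chrX:111360001. Its domain count fell by more than 1 only on chromosome 5 in I, from 9 to 6, so these large mergers rest on HiCratio. Inside chrX:60040001-71600000, 4 of 19 tested genes were called in I and 6 in ID, beside 9.58% and 19.6% of all genes. Mcf2, for a guanine nucleotide exchange factor, fell there in I (-1.61) and ID (-2.33), as did Mtm1, the myotubularin gene (-1.19 and -2.74). The unnamed transcript 3830417A13Rik rose in both (1.66 and 1.64). Fmr1 was not called in I, with 2990 and 2672. The domain chrX:106240001-111320000 joined 6 in I and had 1 CTCFL and 7 CTCF sites, and Brwd3 was its only called gene (-1.11).

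Autosomal mergers held strongly lowered genes as well, beside many genes that were not called. In the chromosome 5 mergers 2 of 15 tested genes were called in I and 2 of 17 in ID. In the chromosome 14 mergers it was 2 of 11 in I and 4 of 10 in ID, beside 9.58% and 19.6% of all genes. On chromosome 5, I joined 6 U domains in chr5:66720001-73000000 and ID joined 7 in nearly the same place, chr5:66280001-72960000. Atp8a1, for a phospholipid flippase, fell from 620.4 to 110.5 in I (-2.49) and to 93.9 in ID (-2.71). Limch1 fell in I (-2.28) and had values of 165 in U and 177 in ID, and Apbb2 fell in ID (-2.57). On chromosome 14, I joined 6 in chr14:8360001-14160000, where Ptprg, for a receptor tyrosine phosphatase, fell from 1374 to 214 (-2.68) and Fhit fell from 37.8 to 6.14 (-2.67). ID joined 5 in chr14:103080001-110960000, where Mycbp2, for a ubiquitin ligase, fell from 2734 to 360.1 (-2.91) and Trim52 rose from 44.4 to 245 (2.45). The adjusted p-values from limma with Benjamini-Hochberg correction were 8.8e-13 for Ptprg in I and 7.9e-15 for Mycbp2 in ID. In ID, chrX:111360001-123280000 joined 5, and Hdx (-2.49), Chm, for a Rab escort protein (-2.58), and Dach2 (-3.98) fell.

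The named splits were long and poor in genes and sites. The longest U domain of all, chr4:62800001-77000000 of 14200 kb, became 4 pieces in I and 4 in ID. ID holds 4 of the 4 inner boundaries of I, and I 3 of the 4 of ID. D, with CTCF present, places 2 boundaries in this stretch, at other positions than I and ID. The stretch counts as split in D and in the untreated CTCF line too, so its division is not limited to depleted lists. It holds Tnc, Astn2, Tlr4 and Brinp1, with 42 coding starts and 23 CTCFL sites. The domain chr16:50800001-55480000, with Cblb, Alcam and Zpld1, became 4 pieces in I and 6 in ID. Of the 5 boundaries that ID places in it, the I list holds 3, and D and the ID list of the CTCF line hold 0, while ID holds all 3 that I places there. In I, chr14:89160001-99080000 with Pcdh9, Klhl1 and Dach1 became 4 pieces and chr3:146960001-152080000 with Adgrl2, Adgrl4 and Ptgfr became 3, and ID holds 0 of the 4 and 0 of the 2 inner boundaries. In ID, chr2:39400001-43640000 with Lrp1b and Kynu became 5, and I holds 1 of the 4 inner boundaries. Named splits thus ranged from unshared to fully shared between I and ID. D placed 1 boundary in each of the named stretches on chromosomes 16, 14 and 3 and 0 in that on chromosome 2, and held 0 of those of I or ID. The domain chrX:26920001-35480000 also became 4 pieces in I, with 0 of its 4 inner boundaries in ID; it has 0 sites of either protein and holds the repeated Btbd35f and Spin2 families, where short reads can fit more than 1 copy, and the part of mapping was not tested.

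Across all mergers, called genes were somewhat more frequent than in kept domains, and most were lower. From U to I, 340 of 2675 tested genes in merged domains were called (12.7%, 11.5 to 14), 74 higher and 266 lower, and 392 of 4251 in kept domains (9.22%, 8.39 to 10.1), 193 higher and 199 lower, beside 9.58% overall. Split domains had 61 of 596 (10.2%), 9 higher and 52 lower. From U to ID, merged domains had 741 of 3208 called (23.1%, 21.7 to 24.6), 259 higher and 482 lower, and kept domains 823 of 4382 (18.8%), 399 higher and 424 lower, beside 19.6%. Lower calls prevailed genome-wide as well, at 5.88% against 3.69% in I and 10.7% against 8.91% in ID, but kept HiCratio domains were nearly even. Kept Crane domains had 98 higher and 130 lower from U to I, and 253 higher and 257 lower from U to ID. The U to I and U to ID comparisons share the U libraries. Crane gave 48 of 411 (11.7%, 8.92 to 15.1) in merged and 228 of 2154 (10.6%) in kept domains, so the excess in merged domains is small there. From U to ID Crane had 82 of 413 (19.9%) in merged and 510 of 2469 (20.7%) in kept domains, so in ID the excess is absent with Crane. Merged domains are gene-poor, and the part of gene content in these shares was not tested.

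In D, where the share called was 5.90%, merged domains had 68 of 1111 called (6.12%) and kept domains 631 of 10975 (5.75%), both near that share. Crane had 18 of 186 (9.68%, 6.21 to 14.8) in merged and 388 of 6519 (5.95%) in kept domains. Genes starting within 40 kb of a U boundary were called from U to I in 120 of 1745 cases (6.88%) where it was kept and 106 of 1111 (9.54%) where it was lost. Crane gave 8.73% and 10.4%. From U to ID HiCratio gave 15.0% and 18.8%, and Crane 17.0% and 18%. The Crane range for kept boundaries in I (7.20 to 10.5) holds the share of all genes, and differences between these shares were not tested.

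Domains merged by both methods give the genes with the firmest placement. From U to I they held 137 tested genes and 18 called (13.1%, 8.48 to 19.8), 4 higher and 14 lower, beside 9.58% of all genes, which lies within that range. In all 18 the U and I libraries did not overlap, as in 51.8% of all tested genes. Called genes were chosen for a large change, so this adds no support to the calls. Tenm4, for a teneurin of cell adhesion, had 1166, 1114 and 1426 in U and 83.9, 63.9 and 46.2 in I, a log2 fold change of -4.27 with an adjusted p of 1.1e-13 by limma with Benjamini-Hochberg correction. Cwc27, for a spliceosome-bound cyclophilin, had 1759, 1640 and 1670 against 288, 366 and 377 (-2.30). Prdm1, for a repressor needed by germ cell precursors, had 224, 337 and 251 against 84.9, 66.9 and 56.1 (-1.95). Also lower were Vegfc, for a lymphatic growth factor (-2.65), Pde3a, for a phosphodiesterase (-2.49), Dennd1b (-2.37), Prmt8, for an arginine methyltransferase (-1.88), the kinase gene Prkg2 (-1.85), the fibrillin gene Fbn2 (-1.78) and Fgf13 (-1.73). Higher were Acaa1b, for a peroxisomal thiolase, with 133, 96.8 and 101 against 335, 264 and 263 (1.38), and at low values Prdm8 (2.20), Mpped1 (2.16) and Lmod3. The calls of Pde3a, Prdm8, Mpped1 and Lmod3 did not hold under every alternative tried.

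From U to ID such domains held 136 tested genes and 33 called (24.3%, 17.8 to 32.1), 13 higher and 20 lower, beside 19.6% of all genes, again within the range. Several called genes are neighbours, which this range does not take into account. All 33 were without overlap between the U and ID libraries, as in 72.0% of tested genes, which again adds no support to the calls. Prmt8 was lowest, with 859, 837 and 917 in U against 29.5 and 41.2 in ID (-4.60, adjusted p 5.6e-14 by limma with Benjamini-Hochberg correction); D had 197, 233 and 195, so it is low without depletion too. Tead4, for a Hippo pathway factor of the trophectoderm, had 980.3, 1131 and 1054 against 149 and 187 (-2.65), and its neighbour Tspan9 1703, 1678 and 1716 against 484 and 492 (-1.80). Zbtb20, for a zinc-finger repressor, had 168, 171 and 183 against 12 and 14.1 (-3.64). Others lower were Elmo1 (-3.57), Frmd4b (-2.62), Syne1, the nesprin-1 gene (-2.31), Gap43, of nerve growth cones (-2.29), Aoah (-2.14) and Pcsk1 (-2.12), of which Aoah and Pcsk1 lost their calls without ID 1. Aoah was low in D too, at 18.8, 13.6 and 11.2, and not in I, at 145, 146 and 140.3. Gap43 had 222, 204 and 337 in D against 570, 599 and 711 in U, and Pcsk1 20.7, 52.6 and 67.4 against 123, 141 and 124. Tead4 had 646, 622 and 603 in D, and Frmd4b and Elmo1 were lower there than in U too. Zbtb20, Syne1 and Tspan9 were not lower in D.

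Higher in ID were Wnk2, a kinase gene, with 409, 397 and 435 against 990.4 and 1093 (1.33) and with 762, 761 and 891 in D, and Ntrk2, the receptor gene for BDNF, with 53.9, 81.0 and 74.3 against 169 and 391 (1.89) and with 333, 433 and 378 in D. Both were thus high in both Dox conditions and not in I, which had 500.7, 445 and 415 for Wnk2 and 52.2, 26.9 and 44.4 for Ntrk2. Map3k6 (1.39), Sytl1 (1.33), Cd164l2 (1.51) and Gpr3 (1.73) lie together on chromosome 4 between positions 133212131 and 133263113. Map3k6 had 672, 800 and 839 in I against 720 and 744 in ID, and Sytl1 484, 376 and 381 against 425 and 394. Both were thus about as high in I. Cd164l2 had 116, 213 and 117 in I against 320 and 244 in ID, and Gpr3 22.4, 37.9 and 48.0 against 60.1 and 86.4. Cd164l2 and Gpr3 start so close that their reads may overlap, which leaves their separate values uncertain. Rbakdn (2.12), Spdya (2.28), Emilin2 (1.38) and Spata31d1b (2.18) complete the set; the last belongs to a family of similar copies, so its reads may be shared. Rbakdn, Emilin2 and Spata31d1b also lay above U in I, and Spdya overlapped U there. Calls of Gpr3, Emilin2 and Spdya were lost under some alternatives.

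Marker lists moved too, in different directions. The 8 stem cell markers, with Dppa5a, Nanog and Tfcp2l1 the most abundant in U, summed to between 153344 and 167775 in U, 116159 to 116446 in I, 123764 to 131300 in D, and 86575 to 92535 in ID. In D the values of Dppa5a and Esrrb overlapped those of U. All 4 markers of 2-cell-like cells are in the table; their sum was 41.8, 57.9 and 71.2 in U, 235 to 289 in I, 24.7 to 56.2 in D, and 70.4 and 93.9 in ID. Zscan4d was their most abundant, and Tcstv1 stood at 0 in all libraries but ID 1. The 4 fibroblast or feeder markers, led by Thy1 in U and by Col1a1 in D, summed to 819.8 to 1023 in U, 1069 to 1315 in I, 1176 to 1440.0 in D, and 1984 and 2167 in ID, with Postn at 0 or near it. In D Col1a1 rose, from 228 to 288 in U to 667 to 803, while Thy1 went from 505 to 768 in U to 464 to 595. The 4 primitive endoderm markers summed to 4280 to 4528 in U, 3608 to 3826 in I, 3191 to 3572 in D, and 3709 and 3830 in ID, with Gata4 and Pdgfra the most abundant. These 2 parted in ID, where Gata4 had 1092 and 1028 against 1472 to 1838 in U. Pdgfra had 1622 and 1755 against 1378 to 1544. The 4 neural markers, led by Tubb3, summed to 1528 to 1870 in U, 1775 to 1890 in I, 925 to 953 in D, and 1132 and 1174 in ID, with Pax6 at 17.4 or less. The sum in I hides opposite moves. Sox1 went from 346 to 385 in U to 159 to 220 in I, and Tubb3 from 949 to 1295 to 1378 to 1560. Sox1 was lower still in ID, at 52.4 and 60.3. The 4 mesendoderm markers, led by Eomes, summed to 287 to 407 in U, 272 to 297 in I, 370 to 460 in D, and 450 and 499.6 in ID. Eomes had 139 to 212 in U, 270 to 346 in D, and 301 and 356 in ID. Gsc fell instead, from 94.1 to 128 in U to 35.5 to 59.9 in D, and 38.2 and 39.2 in ID. The 3 trophoblast markers summed to 109 or less in every library, with Elf5 at 0 in most. The part of such cells in the calls was not tested.

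Lists of genes were placed on the domains, where 16.3% of all placed genes lay in merged HiCratio domains in I and 19.6% in ID. Of 14 pluripotency genes, 4 were in kept, 2 in merged and 8 in shifted domains in I, a merged count near that share. Klf2 and Tbx3 were the merged ones, and neither was called there. From U to I 1 of the 14 was called, beside 9.58% of all genes: Lefty1, which rose from 27.8 to 84.5, though not under every alternative. In ID, 1 of them (Klf4) was in a merged domain, 6 were in kept and 7 in shifted ones, and 6 of the 14 were called, beside 19.6% of all genes: Myc rose (1.79) and Sox2 (-1.29), Klf2 (-1.13), Esrrb (-1.41), Prdm14 (-2.42) and Tfcp2l1 (-1.90) fell. None of those 6 was in a merged HiCratio domain, and so few genes cannot be set apart from the 19.6% share. In Crane, Sox2, Klf2, Tfcp2l1 and Myc lay between domains. The part of mergers in these changes was not tested.

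Of 12 developmental genes, 4 lay in merged HiCratio domains in I and 4 in ID. Crane put 0 of them in merged domains in either, beside 2.51% of placed genes in I and 2.52% in ID. Hoxa9 and Bmp4 were merged in both lists, Sox9 in I, and Hoxc9 lay in a split domain in I; 10 were tested, and 3 called beside 9.58% of all genes: Hoxc9 (1.59) and Ihh (1.83) rose while Epha4 fell (-1.71). The Hoxc9 call was lost under some alternatives. Epha4, an ephrin receptor gene, lay in a merged domain in ID and fell further there (-3.15); it fell in D too (-1.01), with CTCF present. Of 10 imprinted genes, Igf2, H19, Kcnq1 and Peg10 were in merged domains in I, while in ID Igf2, H19 and Kcnq1 were in kept ones. Crane differed, with Igf2 and H19 uncovered in I and shifted in ID and Kcnq1 shifted in both, so the kept domain in ID rests on HiCratio. Igf2 had means of 1199 in U, 1309 in I and 1771 in ID, and it was not called in either. Grb10 fell in I, from 427 to 222, a call lost under some alternatives, and in ID (-1.62).

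Genes for cohesin and insulator proteins, 10 in all, gave 0 calls from U to I, where 9.58% of all genes were called, with Rad21 and Nipbl in merged domains. In ID, 5 of the 10 lay in merged HiCratio domains (Smc1a, Smc3, Nipbl, Pds5a and Pds5b), which held 19.6% of placed genes. Merged Crane domains held 0 of the 10, near their share of 2.52% of placed genes. From U to ID 3 of the 10 were called, all lower, beside 19.6% of all genes. Nipbl, for the cohesin loader (-1.33), lay in a merged domain, and Stag1 (-1.25) and Stag2 (-1.15) lay outside mergers. Of 15 genes that the study discusses around CTCFL and its fusions, not all of them as its targets, 2 (Prkcb and Gadd45g) were in merged domains in I and in ID. Stra8, a gene of meiotic entry, rose in I (1.37), and 8 of the 15 rose in ID, beside 8.91% of all genes, counting Ctcfl itself, whose reads include the transgene, among them Stra8 (2.31), Prss50 (3.86), Dll1 (2.47) and Gal3st1 (1.87). The study chose that list on these samples, so its direction is no independent evidence. Neither Prkcb nor Gadd45g was called from U to I or from U to ID; both rose from U to D (1.62 and 1.72), and Prkcb rose from I to ID (1.06). The 8 that rose from U to ID lay outside merged HiCratio domains, which held 19.6% of placed genes, and so few genes cannot be set apart from that share.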

How the data were processed

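Domain lists of 8 Hi-C samples of the CTCFL line (4 conditions, 2 callers) were compared; the CTCF line served as reference. The authors made Arima Hi-C maps, aligned them with bowtie2 to GRCm38/mm10, ICE-corrected them at 40 kb in HiC-Bench and called domains with HiCratio and with Crane; the deposited positions are in base pairs, in steps of those bins. The authors called MACS peaks for each ChIP replicate; the deposited fold enrichment is ChIP over the caller's background, and the deposited -log10 q-value is the caller's own. A site needs an overlap of at least 1 bp between both replicates. The RNA signal is the authors' gene count divided by a DESeq2 size factor per library; 11 columns were used, and 27 other columns of per-sample values were not used. Whole reads were recovered for 9 libraries, from 6847074 in D 3 to 43154731 in D 2, so low genes are least precise in D 3.

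A boundary is the middle of a gap of at most 80 kb between domains. Crane gaps are all wider, so for Crane the middle of every gap was taken. Domains were compared in Python 3.11.15 with numpy 2.4.6, pysam 0.24.0 and matplotlib 3.10.9; reference bases were read with samtools 1.23.1. Wilson 95% intervals cover counting error only. RNA was fitted in R 4.3.3 with limma 3.58.1 with an intensity trend, 1 fit over all 11 libraries (3 U, 3 I, 3 D and 2 ID) and Benjamini-Hochberg correction over 16840 genes; 16394 of them (97.4%) were placed on the domains by their start. Named genes are called genes in domains merged by both callers whose groups do not overlap, by fold change, at most 10 in each direction; named mergers and splits hold the most U domains or pieces, with 5 mergers from each list and 5 splits from I and 3 from ID; named boundaries have the strongest sites among those with the same fate in both callers. Members and lists were chosen with earlier results of these data known. Alternatives changed the matching distance, the share of a domain held, the caller, the site rules, unknown bases, the RNA filter, scale, libraries and model (edgeR 4.0.16, DESeq2 1.42.0). The code was tested on simulated data.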

Additional observations from a re-analysis of the deposited data

Results flagged for a closer look

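A comparison with the CTCF line drew attention to 3 counts in which the lines went in different directions. From U to D the number of HiCratio domains changed by 19 in the CTCFL line and by -3 in the CTCF line, out of 2952 and 3041 in U. Crane gave -16 and 119 for the same comparison, out of 3079 and 3103. From U to ID the number of Crane domains changed by -114 in the CTCFL line and by 10 in the CTCF line. Each line has 1 list per condition and caller, and the difference was not tested. For D the callers also give opposite signs within each line, so no direction can be read from those counts.

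Among the limits of these results is the form of the lists. There is 1 list per condition, with no statement on pooling and no replicate lists. The read totals that the study reports were not used, so the part of depth was not tested, and the spread of any count between cultures is unknown. Bins of 40 kb set the finest step. Time of treatment is given in different ways for Hi-C. The map of CTCF comes from the other line and from tagged protein. Nothing states that RNA, ChIP and Hi-C come from the same cultures. Domain class, gene density, base composition and site density move together and cannot be told apart here. Contact maps, chimeric lines and RNase-treated samples were not analysed here.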

How the results depend on the processing

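Of 119 alternatives to 15 main results, 92 left the value about where it was, 26 moved it and 1 reversed it. Matching at the same position lowered the share of boundaries kept to 33.7% in I, 33.8% in ID and 70.4% in D, and the share lost in I and present in ID to 15.1%. Matching within 80 kb raised the first 3 to 60.54%, 61.7% and 89.7%, and counting every domain end gave 57% in I and 58.5% in ID. D stayed above I and ID in each case. The Crane lists gave 44.3%, 46.4% and 78.0%, and 22.5% for boundaries lost in I and present in ID. The planned Crane version with gaps of at most 80 kb gave no value, as no Crane gap is that narrow; the middle of every gap, the omission of unknown bases and the omission of D 3 were added after seeing the data.

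Crane also gave 308 domains merged in I and 281 in ID, and 59 and 57 split. The median length of merged domains was 360 kb against 480 kb for kept ones, the reverse of HiCratio. Median gene starts per Mb of merged domains were 2.27 with Crane and 15.4 with all annotated genes, below kept domains (4.17 and 24.6) both times.

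CTCFL sites near lost boundaries moved with the site rule: 49.0% within 20 kb, 74.6% within 80 kb, 68.2% for sites of ID, 57.2% for a -log10 q-value of at least 5 and 75.7% for replicate 1 alone. Kept boundaries moved along, with 47.7%, 74.4%, 66.2%, 59.0% and 74.9%. With Crane boundaries the shares were 47.4% of lost and 54% of kept ones, a difference that HiCratio lacks.

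RNA calls in merged domains, U to I, numbered 48 with Crane. Leaving out 1 library at a time gave 1438 to 1683 for RNA calls, U to I, 2814 to 3401 for RNA calls, U to ID, 1049 to 1358 for RNA calls, I to ID, and 307 to 347 in merged domains; where this left ID with 1 library, that library is assumed to vary like the other groups. With replicate number as a block (replicate block), calls were 1568, 3196, 1243 and 326, although nothing in the labels pairs libraries by number. On the 9 libraries with whole reads, edgeR and DESeq2 called 1486 and 1588 from U to I, 2999 and 3039 from U to ID, and 1155 and 1177 from I to ID; ID has only ID 1 there, so its counts hold no spread within ID. Among 839 alternatives for named gene calls 53 lost the call, in 12 genes, each marked in the text. Among 60 for named boundaries 9 moved, at chr19:41060001, chr1:181860001 and chr17:26900001 with matching at the same position, and at chr13:45020001, chr5:123940001 and chr13:102660001 with matching within 80 kb.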
